A study of Caenorhabditis elegans with 6 samples.

Results

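The comparison described here is that of baicalein-treated with DMSO-treated worms, made up of the 4 arrays whose titles name those treatments out of 6 in the series, and it was made over all 29317 probe sets of the array. The baicalein group holds 2 arrays of N2 wild-type *Caenorhabditis elegans* given 100 µM baicalein dissolved in 0.4% DMSO, and the DMSO group holds 2 arrays of N2 worms given 0.4% DMSO alone. The remaining 2 arrays are of N2 worms in water. All groups share the strain, a start of treatment 16 to 18 h after hatching, 48 h in liquid S medium at 20 °C, RNA of the whole animal and a labelled age of 3 days as young adults. Array titles name independent trials, numbered 1 and 2. According to the methods 3 independent samples were made, and 2 per group were used here. What was separate between the independent trials, such as the culture, is not described. Which sources of variation the spread behind the p-values holds is therefore not known.

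Baicalein is a flavone from the root of *Scutellaria baicalensis*, and DMSO is the solvent in which it was given. A young adult hermaphrodite of *C. elegans* carries a large gonad of dividing germ cells, meiotic nuclei and growing oocytes beside its muscles, nerves, epidermis and intestine. Its gonad makes first sperm and then oocytes, and loads the oocytes with RNA for the early embryo. RNA of the whole animal therefore mixes germline and body, and in such bulk samples fewer cells of a type and less RNA per cell cannot be told apart.

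The values are log2 RMA values, a level per probe set on a log2 scale after background correction and normalization by the authors. The methods describe quantile normalization, yet the distributions of the deposited values differ somewhat from array to array, for a reason not known here. The upper quartile was 2.74 and 2.46 on the baicalein arrays and 3.00 and 2.78 on the DMSO arrays, and the share of probe sets above 4 was 15.2% and 11.99% with baicalein against 18.1% and 16.5% with DMSO. Over all probe sets, not independent of one another, arrays of a group correlated with r of 0.954 for baicalein, 0.978 for DMSO and 0.986 for water. The adult label was checked against markers. The yolk protein gene *vit-2* was at 10.49 and 10.32 on the baicalein arrays and 10.14 and 10.07 on the DMSO arrays, and at 1.45 and 1.70 on the water arrays, close to the median of all probe sets (1.51), which is read here as little signal over background. *noah-1*, a gene of the molting larva, was at 2.16 and 1.85 with baicalein and 1.45 and 1.20 with DMSO, but at 8.49 and 8.60 in water. By *vit-2* and *noah-1* the baicalein and DMSO arrays thus look adult, and the water arrays, labelled alike, do not. The molting markers *mlt-10*, *mlt-11*, *noah-2* and *nhr-23* were also higher in water than with DMSO. Another of them, *ptr-2*, went the other way, at 6.546 and 6.506 with DMSO and 5.191 and 5.155 in water. Water enters the tests below only through the shared estimate of the spread.

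Of the probe sets that passed the test, more were lower than higher in baicalein-treated worms, while the median log2 difference over all probe sets was 0.05. At an adjusted p under 0.05 (limma, Benjamini-Hochberg over all probe sets), 2060 probe sets were lower, 7.03% of those tested, and 507 were higher, 1.73%. The lower ones differed by a median of 2.77-fold, with 348 over 4-fold, and the higher ones by a median of 2.09-fold, with 11 over 4-fold. On the individual arrays the lower probe sets had median values of 3.17 and 2.80 with baicalein, against 4.72 and 4.57 with DMSO, and the higher ones 5.82 and 5.62 with baicalein, against 4.66 and 4.38 with DMSO. In every called probe set both baicalein arrays lay on the same side of both DMSO arrays. Selection by a test of 2 against 2 arrays nearly ensures this, so it is no separate evidence.

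The calls in either direction sat at different levels. Between 2 and 4 on the mean of the 4 arrays, 20.0% of 5412 probe sets were lower and 2.25% higher. Between 6 and 8 the shares were equal, with 160 of 1204 probe sets (13.3%) in each direction, and between 8 and 12 they were 2.01% lower and 4.23% higher of 497. Under 2, where 19505 probe sets lie, 68 were lower and 55 higher.

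**Figure D1:**
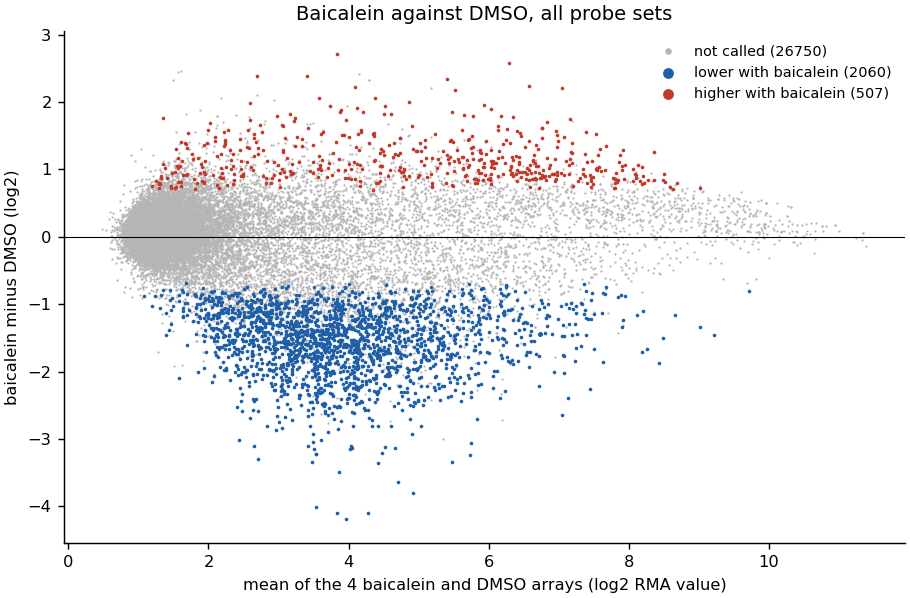
Log2 difference of baicalein and DMSO (vertical axis) against the mean log2 RMA value of the 4 arrays (horizontal axis) for each of 29317 probe sets. Red points were higher (507) and blue points lower (2060) at an adjusted p under 0.05, and the blue points gather at levels between 2 and 6 while the red points extend to higher levels.

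These counts depend on single arrays. Without DMSO replicate 1 limma called no probe set. The smallest adjusted p was then 0.0624, while 3224 probe sets were lower and 1658 higher with an unadjusted p under 0.05, so that no call of a gene given below was made without that array. Leaving out a DMSO array leaves a single array in that group, which is taken to vary like the others, and no median log2 difference of the gene lists below changed sign without either DMSO array. Without DMSO replicate 2 there were 464 lower and 20 higher. Without baicalein replicate 1 or 2 there were 3047 or 1631 lower and 1168 or 993 higher. With only the 4 baicalein and DMSO arrays in the fit, which leaving out either water array gives too, the counts were 1046 and 132. The split also moves with the scaling of the arrays, since quantile normalization applied again gave 1503 lower and 1276 higher, so that 45.9% of calls were higher against 19.8% as reported.

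Gene names were taken from tables that list probe sets past an unadjusted threshold of the authors' own comparisons, and other probe sets are unnamed here. Of 3355 probe sets named in the table of baicalein against DMSO, 38% were called lower and 8.76% higher, with a median log2 difference of -0.44, against 0.05 over all probe sets. That table was chosen on the contrast tested here, so counts of its genes are no independent evidence of direction and are read against those shares. Of 1737 probe sets named in the table of DMSO against water, which shares the DMSO arrays, 1.15% were lower and 3.11% higher. For each gene the probe set with the highest mean was taken, and log2 differences are baicalein minus DMSO throughout.

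Regulators of germline RNA were lower with baicalein. Of 49 named genes of P granules and germline RNA-binding proteins, 37 were lower, none was higher and 12 were not called, with a median of -1.61. *gld-3*, a Bicaudal-C family RNA-binding protein that acts with a poly(A) polymerase in the germline, was at 3.38 and 3.04 in the baicalein arrays, against 6.05 and 5.97 in the DMSO arrays, 6.99-fold lower (adjusted p = 0.00533 from limma). Its partner gene *gls-1* was at 2.76 and 3.11 with baicalein and 5.06 and 5.15 with DMSO. *pgl-3*, a P granule scaffold protein, was at 3.87 and 3.49 with baicalein and 5.92 and 6.05 with DMSO. Both fell, *gls-1* by 2.17 and *pgl-3* by 2.31 on the log2 scale. With DMSO replicate 2 left out, 8 of the genes of this list were lower, and 22 with only the 4 arrays.

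The small RNA machinery moved the same way. Argonautes are the proteins that small RNAs guide to their targets, and the Mutator proteins and RNA-dependent RNA polymerases amplify those small RNAs. Of 39 named genes of this group, 32 fell and 0 rose, with a median of -1.55. *wago-2*, named for the worm-specific class of Argonautes but annotated by RefSeq as a pseudogene, was at 1.99 and 1.64 with baicalein, against 5.08 and 5.22 with DMSO, a log2 fall of 3.34 ± 0.20 (standard error) with an adjusted p of 0.00533 from limma. *prg-2*, named for the Piwi class and likewise annotated as a pseudogene, was at 3.8 and 2.22 with baicalein and 5.95 and 5.68 with DMSO. Here baicalein replicate 1 lay well above replicate 2, and the call is of a fall of 2.81 with a standard error of 0.55 (adjusted p = 0.0287 from limma). *mut-16*, the scaffold of Mutator foci, fell by 1.82 and *rde-2*, also of the Mutator proteins, by 1.70. *rrf-3*, an RNA-dependent RNA polymerase, was at 1.44 and 1.16 with baicalein and 2.93 and 2.94 with DMSO, so that its fall is a bound, at least 1.42 with the baicalein mean raised to the background. On leaving out DMSO replicate 2, 2 of the 32 calls of this list were made, with a median of -1.55 as before.

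Genes that copy, repair and recombine DNA fell in nearly all cases. Of 33 named DNA replication genes 29 fell, and of 53 genes of DNA repair and meiosis 48 fell, and neither list held a gene that rose. Their medians were -1.48 and -1.53. *cdc-7*, the kinase that fires replication origins, was at 3.29 and 2.62 with baicalein and 6.12 and 6.02 with DMSO, 8.67-fold lower. *cdt-1*, which licenses origins, was at 3.20 and 3.10 with baicalein and 5.54 and 5.67 with DMSO, and *mcm-10*, another replication factor, at 2.04 and 1.77 with baicalein and 3.91 and 3.87 with DMSO. The 3 genes were called lower (adjusted p = 0.00533 from limma for each). *lig-1*, a DNA ligase, fell by 2.35 and *msh-6*, of mismatch repair, by 2.52.

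The meiotic genes named by the rule are those of chromosome pairing, crossing over and cohesion. *zim-1*, a zinc finger protein that binds the pairing centres of chromosomes, was at 2.68 and 2.28 with baicalein and 5.55 and 5.62 with DMSO. *zhp-1*, a RING finger protein of crossover control, was at 2.86 and 2.11 with baicalein and 5.75 and 5.50 with DMSO. They fell by 3.11 and 3.14, adjusted p = 0.00533 and 0.0055 from limma. *rmh-2*, a protein of the complex that resolves recombination intermediates, was at 1.33 and 1.18 with baicalein, under the background, and at 4.05 and 3.83 with DMSO, a fall of at least 2.43. The cohesin subunit gene *scc-1* fell by 2.50. When DMSO replicate 2 was dropped, 21 genes of repair and meiosis and 8 of replication were lower, the genes named here from both lists among them.

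By count, cell division genes were the largest of these groups. Of 78 named genes of the spindle, kinetochore, centrosome and cytokinesis, 66 fell, 0 rose and 12 did not pass, with a median of -1.55. *spd-5*, the scaffold of the centrosome, was at 3.37 and 3.11 with baicalein and 5.54 and 5.59 with DMSO. The gene for the cytokinesis regulator *ect-2* was at 2.45 and 2.42 with baicalein and 4.76 and 4.71 with DMSO, and the INCENP gene *icp-1* at 1.79 and 2.01 with baicalein and 4.41 and 4.07 with DMSO. Each of the 3 fell by more than 2 (limma gave 0.00533 as the adjusted p of each). *cyb-2.1*, a B-type cyclin, was at 2.01 and 1.25 with baicalein and 4.32 and 4.61 with DMSO, 7.13-fold lower. Without DMSO replicate 2 there were 19 lower genes in this list and with the 4 arrays 43.

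Nuclear genes of wider use fell beside them. Of 69 named chromatin regulators 55 fell, of 31 genes of the nuclear pore and transport 25, of 36 splicing genes 24 and of 11 nucleolar genes 10. The medians of these lists ran from -1.52 for chromatin to -1.23 for the nucleolus. The condensin subunit genes *hcp-6* and *capg-2* fell by 2.07 and 2.22. *rpoa-49*, a subunit of the RNA polymerase that makes ribosomal RNA, was at 2.89 and 2.59 with baicalein and 5.15 and 5.28 with DMSO, 5.55-fold lower. *prpf-4*, a spliceosome protein, was at 2.55 and 2.43 with baicalein and 4.68 and 4.55 with DMSO. *rnp-8*, which the splicing list holds by its name, binds a germline poly(A) polymerase and was at 5.21 and 4.67 with baicalein and 7.14 and 7.23 with DMSO. *toe-4* alone moved against the nucleolar list, at 5.32 and 5.19 with baicalein and 4.47 and 4.12 with DMSO, a rise of 0.96 (adjusted p = 0.0294 from limma) that was lost with arrays centred on their medians (adjusted p = 0.0558). With DMSO replicate 2 left out, the lower genes numbered 12 for chromatin, 7 for the pore, 4 for splicing and 2 for the nucleolus.

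**Figure D2:**
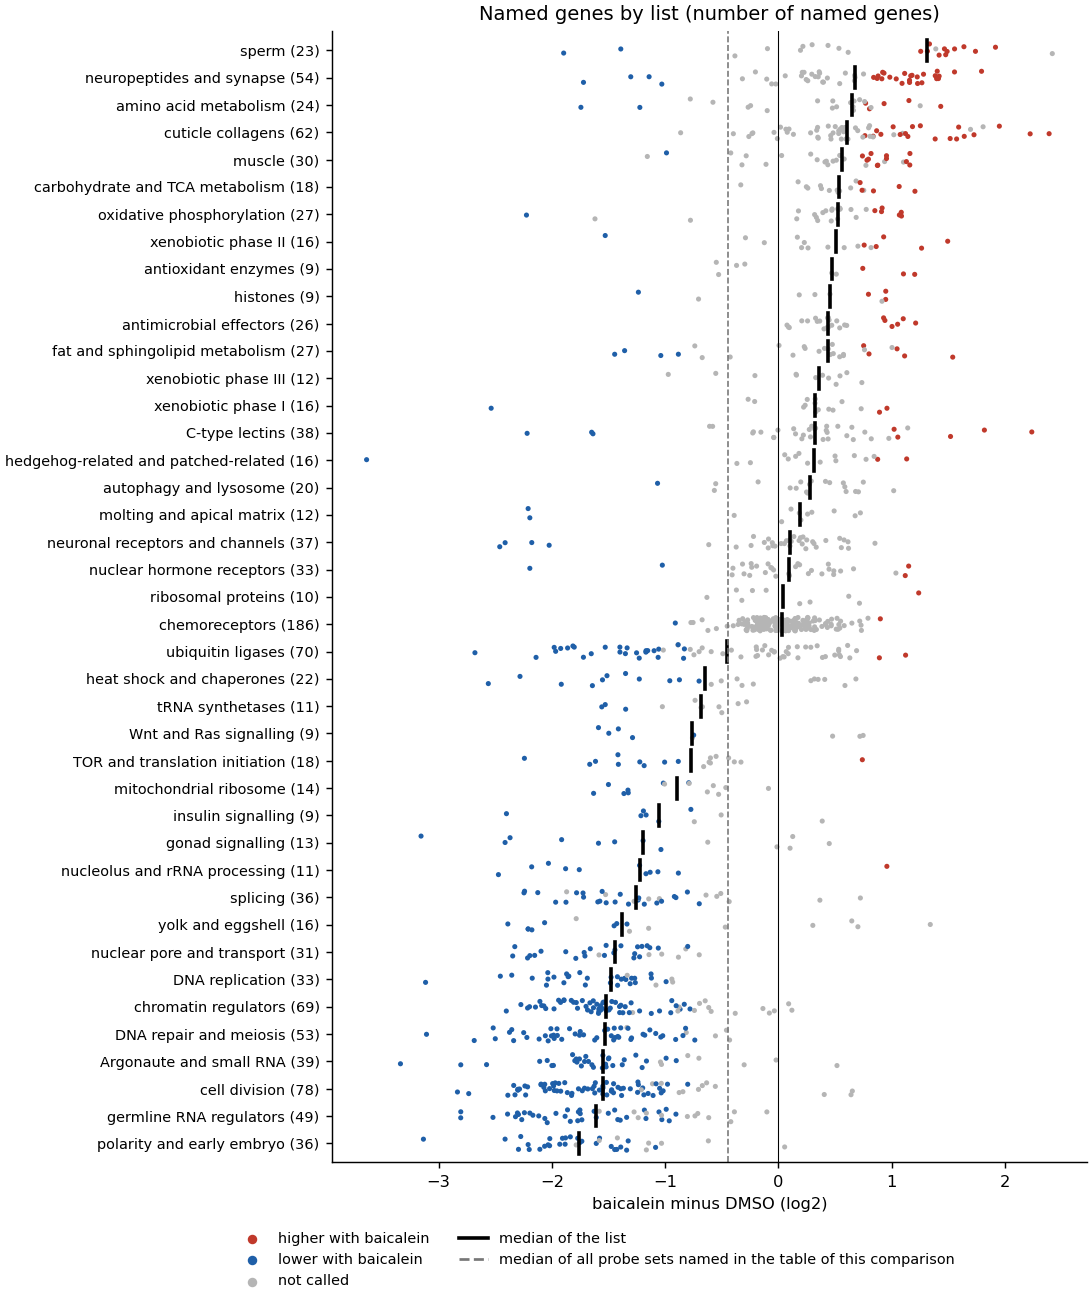
Log2 difference of baicalein and DMSO (horizontal axis) for each named gene (points) of the lists with at least 9 named genes (rows, number of named genes in brackets). Red and blue points passed an adjusted p of 0.05, black bars are list medians and the dashed line is the median of the probe sets named in the table of this comparison (-0.44), with sperm at the top (1.32) and polarity and early embryo at the bottom (-1.76).

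Maternal genes of the early embryo had the lowest median of the lists described, -1.76 over 36 named genes, of which 28 fell. *mex-1*, *oma-1* and *apr-1* are examples. *oma-1*, needed for oocyte maturation, was at 3.13 and 3.30 with baicalein and 5.56 and 5.47 with DMSO. *apr-1*, the APC relative that acts in Wnt signalling of the early embryo, was at 3.34 and 2.84 with baicalein and 6.44 and 6.01 with DMSO, 8.79-fold lower (adjusted p = 0.00533 from limma). *mom-4*, a kinase of the same signalling, was at 2.16 and 1.09 with baicalein and 3.76 and 3.56 with DMSO, with baicalein replicate 1 well above replicate 2. On leaving out DMSO replicate 2, 5 genes of this list were lower.

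Some eggshell genes fell, and the named yolk protein genes did not pass. Of 16 named genes of yolk and eggshell, 8 fell and 8 did not pass. *chs-1*, the chitin synthase of the eggshell, was at 4.63 and 3.89 with baicalein and 6.50 and 6.44 with DMSO. *cpg-4*, a chondroitin proteoglycan, was at 3.13 and 2.49 with baicalein and 5.15 and 5.25 with DMSO. These genes fell by 2.21 and 2.39 (adjusted p = 0.00918 and 0.00752 from limma). The yolk protein genes, made in the adult intestine, gave log2 differences of -0.47 for *vit-1* (adjusted p = 0.24) and 0.30 for *vit-2* (adjusted p = 0.424), and neither was called by limma. *egg-6*, listed here by its name, is known from the apical matrix of epithelia, and fell by 2.21. When DMSO replicate 2 was dropped, 2 genes of the list were lower, and with the 4 arrays 9.

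Named markers of the germline were lower too. Of 8 germline markers chosen 6 are named, of 9 of oocytes and eggshell 8, and of 6 of yolk 2. The others carry no name here. Names come from the authors' comparisons of these arrays, and *pgl-3*, *glp-1* and *oma-1* are members of lists given here too. The calls of these markers are therefore no independent evidence of direction. On a linear scale the summed level of the 6 named germline markers was 149.8 and 138.6 on the baicalein arrays, against 505 and 522 on the DMSO arrays and 21.6 and 18.8 on the water arrays, and all 6 were called lower. That of 8 named markers of oocytes and eggshell was 1142 and 1167 with baicalein and 3099 and 3018 with DMSO, with 6 of 8 lower, while the 2 named yolk markers summed to 1676 and 1510 with baicalein and 1458 and 1387 with DMSO. No germline, oocyte or yolk marker had a baicalein mean at or under the background. The part of a smaller germline in the lower genes was not tested.

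Signalling genes of the gonad and of growth were lower in part. Of 13 named genes of Notch, TGF-beta and related signalling 8 fell, with a median of -1.20. *glp-1*, the Notch receptor of germline stem cells, was at 2.84 and 3.04 with baicalein and 4.31 and 4.47 with DMSO. *apx-1*, a Notch ligand of the embryo, was at 3.14 and 2.40 with baicalein and 5.06 and 5.31 with DMSO. *hop-1*, a presenilin that cleaves Notch receptors, was at 3.32 and 1.56 with baicalein and 5.62 and 5.57 with DMSO. It fell by 3.16, with a standard error of 0.51 (adjusted p = 0.017 from limma), and baicalein replicate 1 lay far above replicate 2. *lin-3*, the EGF-like ligand, fell by 1.59, *lin-45*, a Raf kinase, by 1.29 and *mek-2*, the kinase below it, by 0.75. Of 9 named genes of Wnt and Ras signalling 5 fell, of 5 of the p38 and stress kinases 3 and of 6 of apoptosis 4, with no rise in these lists. The calls of *glp-1*, *lin-45* and *mek-2* were lost with quantile normalization applied again (adjusted p = 0.121, 0.131 and 0.432). Without DMSO replicate 2, 2 genes of gonad signalling and 3 of Wnt and Ras signalling were lower.

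In the insulin pathway the receptor signals through the phosphoinositide 3-kinase AGE-1 to AKT kinases. Of 9 named genes, *sir-2.1* counted here too, 6 fell and 3 did not pass. The table of this comparison, chosen on this contrast, names 8 of them, and 38% of its probe sets were lower. *age-1* was at 2.37 and 2.71 with baicalein and 3.75 and 3.67 with DMSO, and *aap-1*, its adaptor subunit, at 2.31 and 1.89 with baicalein and 3.33 and 3.25 with DMSO. Kinase and adaptor fell by 1.17 and 1.19 (adjusted p = 0.0172 and 0.0176 from limma). *akt-1*, the kinase downstream, was at 3.39 and 3.58 with baicalein and 4.32 and 4.13 with DMSO and was not called (log2 difference -0.74, adjusted p = 0.0534). The call of *age-1* was lost with the 4 arrays (adjusted p = 0.0522 from limma), with quantile normalization (0.203) and with cyclic loess (0.0972). That of *aap-1* was lost with the 4 arrays (adjusted p = 0.0551 from limma). Neither call was kept without DMSO replicate 2 (adjusted p = 0.0851 and 0.0883 from limma).

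The TOR kinase sits in a pair of complexes with DAF-15 (Raptor) or RICT-1 (Rictor) and sets translation and growth. Of 18 named genes of these complexes and of translation initiation, 9 fell, 1 rose and 8 did not pass. All 18 are named in the table of this comparison, chosen on this contrast. Of its probe sets 38% were lower and 8.76% higher, with a median of -0.44. *rict-1* was at 3.31 and 2.78 with baicalein and 4.75 and 4.58 with DMSO, and *daf-15* at 3.34 and 2.56 with baicalein and 4.44 and 4.30 with DMSO. *ife-3*, a cap-binding protein of the germline, was at 6.88 and 6.82 with baicalein and 8.09 and 8.06 with DMSO, 2.34-fold lower (adjusted p = 0.0101 from limma). Those 3 genes fell, but the call of *daf-15* was lost with the 4 arrays (adjusted p = 0.0702 from limma) and with quantile normalization (0.0526). The TOR kinase gene itself, *let-363*, was at 3.09 and 3.38 with baicalein and 3.73 and 3.62 with DMSO, and *pha-4*, a transcription factor of pharynx and gut, at 2.40 and 2.35 with baicalein and 2.94 and 2.6 with DMSO. Neither was called (log2 difference -0.44, adjusted p = 0.241, and -0.39, adjusted p = 0.452, from limma). *iff-2*, an eIF5A gene, was called higher by 0.74, which was lost under every other scaling of the arrays (adjusted p = 0.065 to 0.172). With DMSO replicate 2 left out, the list held 0 lower genes, and 4 with the 4 arrays, while the median was -0.78 and -0.77, against -0.77 with all arrays.

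PARP enzymes and sirtuins both consume NAD. *parp-1* was at 3.82 and 3.25 with baicalein and 5.83 and 5.32 with DMSO, and *parp-2* at 2.70 and 2.15 with baicalein and 4.92 and 4.47 with DMSO. The falls were 4.1-fold and 4.83-fold (adjusted p = 0.0118 and 0.0106 from limma). *sir-2.1*, the sirtuin best studied in worm ageing, was at 2.56 and 2.55 with baicalein and 3.35 and 3.31 with DMSO. Its fall of 0.77 had an adjusted p of 0.0463 from limma, which the variance trend, the replicate block, the 4 arrays, 2 other scalings and the loss of either baicalein array each raised above the threshold, to between 0.0629 and 0.338. On leaving out DMSO replicate 2, none of the 3 calls was kept (adjusted p = 0.0544, 0.0554 and 0.164).

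Protein folding and turnover genes were mostly lower or not called. Of 22 named heat shock and chaperone genes 11 fell and 0 rose, with a median of -0.65. *hsf-1*, the transcription factor of the heat shock response, was at 3.60 and 2.97 with baicalein, against 5.60 and 5.54 with DMSO, 4.87-fold lower (adjusted p = 0.00669 from limma). The DNAJ co-chaperone genes *dnj-26*, *dnj-2* and *dnj-5* fell by 2.56, 1.92 and 1.51, and all 4 genes kept their call without DMSO replicate 2. Among proteasome subunits *rpn-1* and *rpn-3* fell, by 1.29 and 0.93, with 4 of 6 not called. Of 70 named ubiquitin ligase genes 27 fell, 2 rose and 41 did not pass, with a median of -0.45. That is close to the probe sets named in the table of this comparison, of which 38% were lower, with a median of -0.44. *fzy-1*, the activator of the anaphase-promoting complex, fell by 1.92, and *fbxc-44*, an F-box gene, by 2.68. *fbxa-157*, another F-box gene, was at 2.92 and 3.12 with baicalein and 2.03 and 1.76 with DMSO and rose. When DMSO replicate 2 was dropped, 5 chaperone genes and 6 ubiquitin ligase genes were lower and no ubiquitin ligase rose.

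Genes of the mitochondrial ribosome fell in part. Of 14 named mitochondrial ribosomal proteins 7 fell, with a median of -0.90. Among the probe sets named in the table of this comparison 38% were lower and 8.76% higher, with a median of -0.44. Of 11 tRNA synthetases 3 fell, a smaller share than that 38%. Of 10 named proteins of the cytosolic ribosome 1 rose, *rpl-23A.1*, at 7.64 and 7.98 with baicalein and 6.64 and 6.50 with DMSO, and 9 did not pass. A close pair of paralogs, *rpl-11.1* and *rpl-11.2*, gave log2 differences of -0.63 and 0.62, neither of them called (adjusted p = 0.0778 and 0.0933 from limma), and their probes may share transcripts. Without DMSO replicate 2 none of the genes of these 3 lists was called.

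The metallothioneins, small proteins that bind metal ions, rose most among the genes of stress defence. *mtl-2* was at 7.42 and 7.71 in the baicalein arrays, against 5.18 and 4.81 in the DMSO arrays, 5.95-fold higher (log2 difference 2.57, standard error 0.24, adjusted p = 0.0055 from limma). *mtl-1* was at 8.18 and 8.12 with baicalein, against 6.08 and 5.82 with DMSO, 4.6-fold higher (adjusted p = 0.00544). Both kept their call without DMSO replicate 2 (adjusted p = 0.0458 and 0.0445). Of 8 named genes of metal handling 3 rose, *hrg-7*, of heme signalling, beside the metallothioneins, and 1 fell. The gene that fell, *zipt-7.1*, encodes a zinc transporter and was at 3.15 and 3.17 with baicalein and 5.32 and 5.37 with DMSO.

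Antioxidant enzymes rose in 3 of 9 named genes. *ctl-2*, the peroxisomal catalase, was at 8.39 and 8.42 with baicalein and 7.35 and 7.26 with DMSO, 2.15-fold higher (adjusted p = 0.0125 from limma). *trx-3*, an intestinal thioredoxin, was at 4.15 and 4.21 with baicalein and 2.85 and 3.11 with DMSO, and *gpx-6*, a glutathione peroxidase gene, at 1.95 and 1.86 with baicalein and 1.09 and 1.23 with DMSO, with DMSO under the background. They rose by 1.20 and by at least 0.39. *txl-1*, a thioredoxin-like protein, had a log2 difference of -0.53 and was not called (adjusted p = 0.113). With DMSO replicate 2 left out, none of the 3 calls was made.

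Enzymes that modify and conjugate foreign compounds gave few calls. In phase I, 2 of 16 named genes rose and 1 fell, and in phase II 5 of 16 rose and 1 fell. *gst-20*, a glutathione S-transferase, was at 9.05 and 8.93 with baicalein and 7.78 and 7.68 with DMSO. *ugt-31*, a UDP-glycosyltransferase, was at 5.55 and 4.67 with baicalein and 3.54 and 3.68 with DMSO. These genes rose by 1.26 and 1.5 (adjusted p = 0.0244 and 0.0325 from limma). The cytochrome P450 gene *cyp-35A2*, which responds to many xenobiotics, was at 2.69 and 2.59 with baicalein and 2.05 and 1.77 with DMSO and was not called (adjusted p = 0.0817). *cyp-31A3*, a P450 of eggshell lipid synthesis, moved the other way and fell by 2.54. None of 12 named ABC transporters was called by limma, with a median of 0.36 and, at an unadjusted p under 0.05, 2 lower and 2 higher. On leaving out DMSO replicate 2, neither list had a gene that rose, and with the 4 arrays 1 of phase II did.

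**Figure D3:**
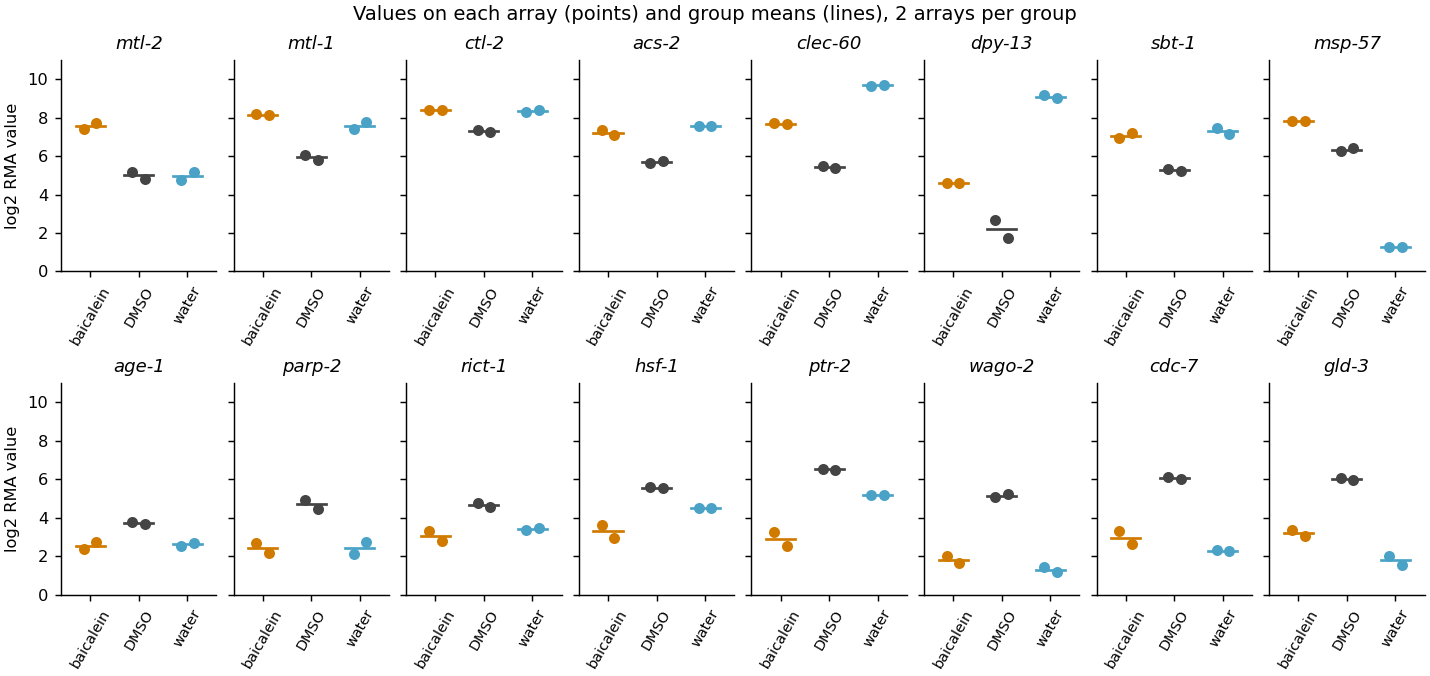
Log2 RMA values of 16 genes on each of the 6 arrays (points) with group means (lines), for baicalein, DMSO and water from left to right in each panel, 2 arrays per group. In the upper row the baicalein points lie above the DMSO points (*mtl-2* at 7.42 and 7.71 with baicalein against 5.18 and 4.81 with DMSO), in the lower row below them (*wago-2* at 1.99 and 1.64 with baicalein against 5.08 and 5.22 with DMSO), and the place of the water points changes from gene to gene.

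Sperm genes had the highest median of all lists, 1.32 over 23 named genes, of which 11 rose, 2 fell and 10 did not pass. Major sperm proteins are the cytoskeleton of the crawling nematode sperm. *msp-57* was at 7.81 and 7.82 with baicalein, against 6.27 and 6.41 with DMSO, and *msp-45* at 7.98 and 8.07 with baicalein against 6.52 and 6.05 with DMSO. They were 2.79-fold and 3.34-fold higher (adjusted p = 0.00732 and 0.0134 from limma). *smz-1*, a PDZ protein of sperm, was at 3.33 and 3.44 with baicalein and 1.87 and 1.97 with DMSO. Against the rest of the list, *spe-44*, a transcription factor of developing spermatocytes, was at 1.99 and 1.80 with baicalein and 3.65 and 2.93 with DMSO and fell, as did *spe-39*, of vesicle traffic. Of 9 sperm markers chosen 4 are named, *msp-57* of this list among them. On a linear scale the 4 summed to 608 and 546 with baicalein, against 219 and 213 with DMSO and 15.02 and 12.2 in water. The germline markers given above were lower with baicalein. The part of either set of markers in these calls was not tested. The *msp* genes are near-identical copies, so their probe sets may read one another and are not independent. When DMSO replicate 2 was dropped, *msp-57* alone of this list was called, and with the 4 arrays 8 rose.

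Genes of neuropeptides and their processing rose in part. Of 54 named genes of neuropeptides and synapse, 25 rose, 4 fell and 25 did not pass, with a median of 0.68. *sbt-1*, the 7B2 chaperone of a neuropeptide-cleaving convertase, was at 6.93 and 7.21 with baicalein and 5.33 and 5.22 with DMSO, and *egl-3*, the convertase, at 6.26 and 6.44 with baicalein and 4.96 and 5.42 with DMSO. *egl-21*, the carboxypeptidase that trims the cut peptides, was at 6.56 and 6.77 with baicalein and 5.34 and 5.43 with DMSO. All 3 of these processing genes rose, of which *egl-3* and *egl-21* were chosen after their values were seen. Of the peptides, *flp-15* was at 7.88 and 7.89 with baicalein and 6.47 and 6.50 with DMSO and *nlp-12* at 7.36 and 7.20 with baicalein and 5.82 and 5.91 with DMSO, rises of 1.40 and 1.41 (adjusted p = 0.00752 and 0.00844 from limma). Those that fell were 3 endocytosis genes also used outside neurons, *ehs-1*, *unc-11* and *unc-57*, and *tdc-1*, a tyrosine decarboxylase expressed in neurons and in the gonad sheath. They fell by 1.72, 1.14, 1.03 and 1.30. Without DMSO replicate 2, 1 gene rose and 1 fell, and with the 4 arrays 10 and 3.

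Of 37 named receptors and channels of neurons, 0 rose and 4 fell, with a median of 0.10. In 24 of them a group mean lay at or under the background, and at an unadjusted p under 0.05 there were 5 lower and 5 higher. Those that fell are innexins, the gap junction proteins, which the germline and its sheath also use. *inx-21* was at 2.48 and 2.35 with baicalein and 4.89 and 4.86 with DMSO, and *inx-14* at 2.53 and 2.42 with baicalein and 5.10 and 4.21 with DMSO. *inx-22* was under the background with baicalein, at 1.54 and 1.30 with baicalein against 3.74 and 3.94 with DMSO, and fell by at least 2.33. Of 186 named chemoreceptors 1 rose and 1 fell, and in 182 of them a group mean lay at or under the background.

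Muscle genes rose in part, by small amounts. Of 30 named genes 11 rose, 1 fell and 18 did not pass, with a median of 0.56. *unc-15*, the paramyosin of thick filaments, was at 7.70 and 7.63 with baicalein and 6.58 and 6.49 with DMSO. *deb-1*, the vinculin that anchors thin filaments, was at 6.84 and 6.58 with baicalein and 5.65 and 5.44 with DMSO, and *unc-54*, the major myosin heavy chain, at 8.99 and 8.86 with baicalein and 8.14 and 8.07 with DMSO. The rises were 2.19-fold, 2.24-fold and 1.76-fold. *cpn-1*, a calponin-like gene, fell by 0.99. With arrays centred on their medians 3 genes rose in this list, with the 4 arrays 1, and without DMSO replicate 2 0. Of 6 markers chosen for body wall muscle 4 are named, and of 10 for neurons 5. On a linear scale those of muscle summed to 729 and 676 with baicalein and 386 and 367 with DMSO. Those of neurons summed to 313 and 365 with baicalein and 127 and 138 with DMSO. The sums are carried by *unc-54* and *unc-15*, and by *sbt-1*, *egl-3* and *egl-21*, given above with the lists. They are therefore no measure separate from the lists, and their part in the rises was not tested.

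Cuticle collagens, the secreted proteins of the worm's outer layer, rose in 19 of 62 named genes and fell in 0, with a median of 0.61. *dpy-13* was at 4.59 and 4.61 with baicalein, against 2.67 and 1.75 with DMSO, 5.25-fold higher (adjusted p = 0.00939 from limma). *col-73* was at 5.36 and 5.05 with baicalein and 3.74 and 2.22 with DMSO, and *col-178* at 6.99 and 7.12 with baicalein and 5.71 and 5.21 with DMSO. In *dpy-13* and *col-73* DMSO replicate 1 lay well above replicate 2. Of 9 markers of the molting larva, the stage at which new cuticle is made, 6 are named. On a linear scale they summed to 30.3 and 24.8 with baicalein, against 135.9 and 128.9 with DMSO and 809 and 874 in water. This sum is carried by *ptr-2* and *nhr-23*, both called lower, while *mlt-10*, *mlt-11*, *noah-1* and *noah-2* were not called, with log2 differences of 0.20, 0.18, 0.68 and -0.39, and the part of these genes in the collagen calls was not tested. Among the 36 collagens that the table of DMSO against water names, 11 rose and none fell, against 3.11% and 1.15% of all probe sets of that table. That table shares the DMSO arrays. The table of this comparison names 40 of the 62 collagens, so a good part of them are in both tables, *dpy-13* and *col-12* among others. Genes in both were also chosen on this contrast, so these counts are no independent evidence of direction. Of all probe sets named only in the table of DMSO against water, 0.964% were higher and 0.514% lower. Collagens are a large family of like sequence, and probe sets may read more than 1 member. With DMSO replicate 2 left out, 1 collagen rose, *dpy-13*, and with the 4 arrays 6.

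Of molting and hedgehog-related genes few were called. Of 12 named molting and matrix genes 2 fell, the nuclear receptor *nhr-23*, which drives molting, and *egg-6*. *nhr-23* was at 2.58 and 2.56 with baicalein and 4.91 and 4.62 with DMSO, against 6.10 and 6.06 in water. *ptr-2*, a patched-related protein, had the largest fall of any gene named by the rule. It was at 3.26 and 2.52 in the baicalein arrays, against 6.55 and 6.51 in the DMSO arrays, 12.4-fold lower (log2 fall 3.64 ± 0.26, standard error, with an adjusted p of 0.00533 in limma). *grd-5* and *grd-3*, of the hedgehog-related ligands, rose by 1.13 and 0.88. The calls of *nhr-23*, *egg-6* and *ptr-2* were kept without DMSO replicate 2, and those of *grd-5* and *grd-3* were lost.

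Antimicrobial genes rose in part, and lectins were called in both directions. Of 26 named lysozymes, saposin-like and other antimicrobial genes 6 rose and 0 fell, with a median of 0.44. *lys-7*, a lysozyme, was at 8.67 and 8.28 with baicalein and 7.47 and 7.05 with DMSO, and *spp-4*, a saposin-like protein, at 8.58 and 8.54 with baicalein and 7.61 and 7.50 with DMSO. They rose by 1.21 and 1.00 (adjusted p = 0.0264 and 0.0172 from limma). Of 38 named C-type lectins, sugar-binding proteins of which many are induced by pathogens, 5 rose and 3 fell. In 14 of the 38 a group mean lay at or under the background. Among the probe sets named in the table of this comparison 8.76% were higher and 38% lower, so these counts are not read as a rise of lectins. *clec-60* was at 7.71 and 7.67 with baicalein and 5.50 and 5.41 with DMSO, 4.72-fold higher, and *clec-82* at 5.53 and 5.50 with baicalein and 4.02 and 3.38 with DMSO. *clec-88*, *clec-87* and *clec-91* fell by 2.22, 1.65 and 1.64. On leaving out DMSO replicate 2, the calls of *clec-60*, *clec-82* and *clec-91* were kept and no antimicrobial gene was called, as with the 4 arrays.

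Energy metabolism showed small rises. Of 18 named genes of carbohydrate and TCA metabolism 5 rose and 0 fell, and of 27 genes of oxidative phosphorylation 6 rose and 1 fell. *aldo-1*, an aldolase of glycolysis, was at 5.46 and 5.16 with baicalein and 4.33 and 3.88 with DMSO, and *gpd-2*, a glyceraldehyde phosphate dehydrogenase, at 8.64 and 8.68 with baicalein and 7.82 and 7.37 with DMSO. *icl-1*, of the glyoxylate cycle, was at 8.72 and 8.83 with baicalein and 7.92 and 7.95 with DMSO. Their rises were between 1.79-fold and 2.31-fold. The paralogs of the succinate dehydrogenase flavoprotein went apart, *sdha-1* at 6.6 and 6.57 with baicalein and 5.59 and 5.40 with DMSO, and *sdha-2* at 3.86 and 2.21 with baicalein and 5.21 and 5.31 with DMSO. The log2 differences were 1.08 and -2.23 (adjusted p = 0.0181 and 0.0456 from limma). With the 4 arrays neither list had a call, and without DMSO replicate 2 none either.

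Lipid and amino acid genes held calls in both directions. Of 27 named genes of fat and sphingolipid metabolism 5 rose and 4 fell. *acs-2*, an acyl-CoA synthetase of fatty acid oxidation, was at 7.34 and 7.09 with baicalein and 5.63 and 5.73 with DMSO, 2.91-fold higher (adjusted p = 0.00749 from limma). *fat-5*, a palmitoyl-CoA desaturase, and *lbp-1*, a fatty acid binding protein, rose by 1.05 and 1.11. *acs-4*, another synthetase of the same family, fell by 1.45. Of 24 genes of amino acid metabolism 5 rose and 2 fell. *tatn-1* and *pah-1*, of tyrosine and phenylalanine breakdown, rose by 1.43 and 1.15, and *got-2.1*, an aspartate aminotransferase, fell by 1.74. When DMSO replicate 2 was dropped, only *acs-2* and *got-2.1* of these genes were called.

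Of the histones, hormone receptors and other small lists, few members were called. Of 9 named histone genes 3 rose, *hil-1*, *his-41* and *his-71*, and *hcp-3*, the centromeric histone, fell by 1.24. Of 33 nuclear hormone receptors *nhr-97* and *nhr-88* rose, by 1.15 and 1.12, and *nhr-23* and *nhr-66* fell. *ced-3*, the caspase of programmed cell death, was at 2.55 and 1.80 with baicalein and 4.51 and 3.91 with DMSO and fell by 2.04. *atg-9*, of autophagy, was the only one of 20 autophagy and lysosome genes called, lower by 1.07, and this was lost with the 4 arrays (adjusted p = 0.0574 from limma) and with quantile normalization (0.379). In the intestine list none of 7 named genes was called by limma (1 higher at an unadjusted p under 0.05), although the intermediate filament genes *ifb-2* and *bbln-1* rose by 0.92 and 0.95.

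Beside the genes above, the 15 largest rises included *thn-2*, a thaumatin-like gene, at 5.67 and 5.33 with baicalein and 3.90 and 3.20 with DMSO, *vap-1*, a venom allergen-like gene, at 4.21 and 3.94 with baicalein and 2.68 and 1.82 with DMSO, and *dpsm-1*, at 3.89 and 3.85 with baicalein and 2.19 and 1.97 with DMSO. *txt-17* and *spig-11* rose by 1.90 and 1.85, and the collagen *col-12* and sperm protein gene *msp-113* by 1.95 and 1.92. Of these genes *dpsm-1* alone was also called without DMSO replicate 2. The 15 largest falls included *gei-14*, at 1.62 and 1.45 with baicalein and 4.30 and 4.50 with DMSO, *gldi-5*, at 4.06 and 2.82 with baicalein and 6.49 and 6.25 with DMSO, and *marc-3*, a RING finger gene, at 4.76 and 3.66 with baicalein and 7.12 and 7.42 with DMSO. *aptf-3*, an AP2 transcription factor, was under the background with baicalein, at 1.5 and 1.37, against 4.27 and 4.22 with DMSO, and fell by at least 2.73. *mop-25.3*, a relative of the kinase partner MO25, fell by 2.85. *gldi-5* and *marc-3* lost their call without DMSO replicate 2, and the others of this group kept it.

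The water arrays are given beside the lists as levels only, since the comparisons share arrays. The median level of the germline RNA regulators was 3.98 and 3.48 with baicalein, 5.80 and 5.68 with DMSO and 3.14 and 3.00 in water, and that of DNA replication genes 3.44 and 3.06 with baicalein, 5.29 and 5.16 with DMSO and 3.38 and 3.36 in water. Genes of eggshell and yolk had medians of 6.30 and 5.77 with baicalein, 7.43 and 7.35 with DMSO and 2.41 and 2.12 in water. In all 3 lists DMSO stood above the other groups. For cuticle collagens the medians were 3.26 and 2.79 with baicalein, 2.33 and 2.1 with DMSO and 5.10 and 4.80 in water, and for neuropeptides and synapse 4.06 and 3.82 with baicalein, 3.37 and 3.54 with DMSO and 4.78 and 4.74 in water. In these lists DMSO stood lowest and water highest. Muscle genes, at 6.48 and 6.25 with baicalein, 5.62 and 5.51 with DMSO and 5.24 and 5.17 in water, stood highest with baicalein.

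**Figure D4:**
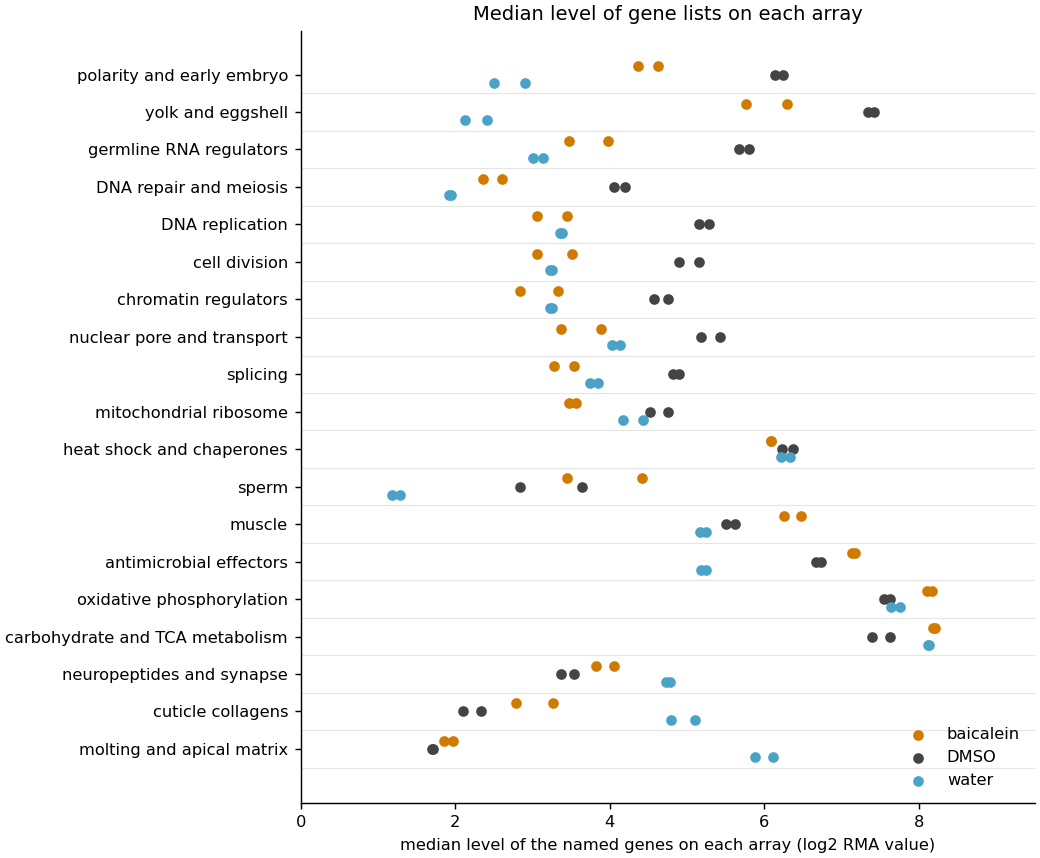
Median log2 RMA value of the named genes of 19 lists (rows) on each array, with baicalein in orange, DMSO in dark grey and water in blue from top to bottom within a row. For lists from polarity and early embryo down to heat shock and chaperones the baicalein points lie left of the DMSO points, and from sperm down to molting and apical matrix the mean of the baicalein points lies to the right of that of DMSO.

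The chromosomes differed in their share of calls. Genes expressed in the germline are known to be rare on the X chromosome of *C. elegans*. Of 378 genes on X named in the table of this comparison, 63 were higher (16.7%) and 18 lower (4.76%), with a median log2 difference of 0.35. On chromosome I, with 618 named genes, 26 were higher (4.21%) and 345 lower (55.8%), with a median of -1.13. The other autosomes lay between, from 27.5% lower on V to 49% on III. The named genes of X had a median DMSO level of 1.65, near the background, against 4.44 on I, and the part of this level in the counts was not tested. On X more genes were higher than lower under each other scaling too (36 and 18 with arrays centred, 77 and 16 with quantile normalization, 88 and 16 with cyclic loess), but without DMSO replicate 2 there were 1 and 5.

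**Figure D5:**
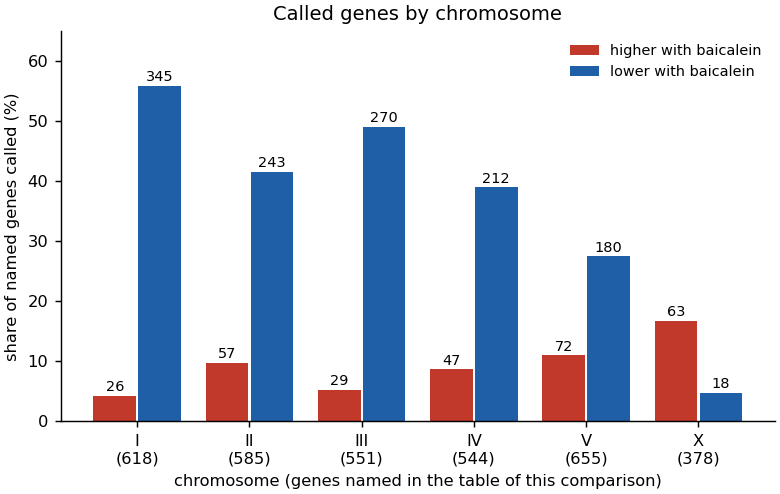
Share of the genes named in the table of this comparison (vertical axis, percent) that were higher (red) or lower (blue) with baicalein, by chromosome, with the number of named genes in brackets and the number called above each bar. X is the only chromosome with more higher (63) than lower (18) genes, and chromosome I has the tallest bar of lower genes (345 of 618).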

How the data were processed

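RNA of whole worms was hybridised to 6 Affymetrix gene arrays of *C. elegans*, 2 each for baicalein, DMSO and water, and groups and trial numbers came from the sample titles. The deposited log2 values per probe set were made by the authors with RMA in Affymetrix Expression Console, versions not given in the sources used here. The deposited tables of the authors' own comparisons hold unadjusted p-values, ratios, fold changes and F statistics, none of which was used. They gave gene symbols and transcript accessions, matched to RefSeq gene symbols and chromosomes (assembly WBcel235), so that 4911 probe sets had 1 gene name. Control probe sets cannot be recognised in the value table and stayed in the fit.

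Groups were compared with limma 3.58.1 in R 4.3.3 (3 groups, 6 arrays, 3 residual degrees of freedom, two-sided, Benjamini-Hochberg adjustment over 29317 probe sets). The fit was tested on simulated data. Tables and figures were made with Python 3.11.15, pandas 2.3.3, numpy 2.4.6 and matplotlib 3.10.9. Genes named were those the study names for baicalein, the 15 largest log2 differences in each direction, up to 4 genes per list with the smallest p, and genes that moved against their list, and 2 of the study's genes are not reported here. Members and lists were chosen with earlier results of these data known. The background of 1.51 was chosen after the values were seen. A fall or rise given as "at least" has the dimmer group mean raised to it.

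Trial numbers were not used to pair the samples in the main fit. Deviations of equal trials correlated with r = 0.16 between baicalein and DMSO and with r = -0.07 and -0.05 of each with water. With a single deviation per group these values cannot show whether equal trials were paired. Alternatives were a variance trend, the 4 arrays alone, 3 other scalings, a filter on dim probe sets, a replicate block, the methods' test, each array left out, and other choices of probe set and gene names. The number of arrays limits the precision of all values.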

Additional observations from a re-analysis of the deposited data

How the results depend on the processing

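Against 507 higher and 2060 lower probe sets, the higher count was 132 with the 4 arrays alone, 289 with arrays centred on their medians, 1276 with quantile normalization again, 1403 with cyclic loess and between 0 and 1168 with 1 array left out. The lower count was 1046 with the 4 arrays alone and between 0 and 3047 with 1 array left out. The other scalings left 1503 to 2066 lower. The lowest counts came without DMSO replicate 1. The share of calls that were higher, 19.8% as reported, was 12.3% with arrays centred, 45.9% with quantile normalization and 42.5% with cyclic loess. The methods' test, an analysis of variance without limma's moderation, gave 2007 higher and 3025 lower at their unadjusted threshold, and 0 and 1 after Benjamini-Hochberg adjustment. A replicate block on trial number gave 418 and 1941, a variance trend 560 and 1871, and leaving out dim probe sets 618 and 2407. Whether equal trial numbers mark a shared batch is not known, so the block is a check of the counts only.

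Of 191 called genes among the 225 named by the rule, the block lost 18 calls, the variance trend 12, the 4 arrays alone 61, centring 15, quantile normalization 30, cyclic loess 16, the loss of DMSO replicate 1 all 191 and of DMSO replicate 2 123, and no call changed direction under any of these. Some list medians near 0 changed sign. That of histones was -0.0365 with cyclic loess, that of neuronal receptors and channels -0.0494 without dim probe sets, and that of ribosomal proteins -0.0516 with arrays centred, -0.0801 with quantile normalization and -0.139 with cyclic loess. For nuclear hormone receptors the median was -0.000397 with arrays centred, -0.0663 with the names of the table of DMSO against water alone, and between -0.0131 and 0.113 with 1 array left out. For ubiquitin ligases it was 0.0156 with those names alone. The causes were not tested.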

Other observations

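Some transcripts that encode no protein were called too. Of 342 ncRNA genes named in the table of baicalein against DMSO, 14 were higher and 3 lower with baicalein, and of 33 pseudogenes 0 were higher and 8 lower. Both classes were called less often in each direction than all probe sets named there, of which 8.76% were higher and 38% lower. Of 2950 protein-coding genes named there 280 were higher and 1256 lower.

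Most probe sets carry no gene name here. Of 24406 unnamed probe sets, 776 were lower with baicalein (3.18%) and 198 higher (0.811%), with a median log2 difference of 0.06.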
